A study of Homo sapiens with 12 samples.

Results

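A set of 8 genes was examined among the 36433 gene symbols of an RNA sequencing table, in human endothelial cells given a microRNA mimic. The set holds the adiponectin receptors ADIPOR1 and ADIPOR2, the related PAQR genes PAQR3, PAQR4, PAQR5, PAQR7 and PAQR8, and CDH13, which encodes the adiponectin-binding protein T-cadherin. It was chosen by gene family, on account of the low ADIPOR2 level under the miR-150 mimic, so the values of the miR-150 mimic against scrambled RNA are a description with no test. All 8 symbols were found in the table, and all 8 were among the 13750 genes tested, which are those with at least 1 TPM (a transcript level per length, scaled to the same total in every library) in at least 3 libraries. PAQR5 reached 1 TPM in exactly 3 libraries, and the other 7 genes did so in all 12.

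The cells were HMEC-1, an established line of human dermal microvascular endothelium. They received a miR-126 mimic, a miR-143 mimic, a miR-150 mimic or a scrambled RNA without a target, each at 50 nM, and RNA was collected 48 hours later. Every group, scrambled RNA included, was transfected with Lipofectamine RNAiMAX. Each group had 3 libraries, which the labels number 2, 3 and 4. The labels do not say whether these came from separate cultures, so p-values rest on library-to-library spread that may be technical, and results from 1 cell line are not replicated across donors.

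Adiponectin is a hormone secreted mainly by fat cells. ADIPOR1 and ADIPOR2 are its receptors, membrane proteins whose amino terminus faces the cytosol, unlike that of G protein-coupled receptors. They are linked to AMP-activated kinase, to the nuclear receptor PPAR alpha and to hydrolysis of ceramide, and both belong to the progestin and adipoQ receptor (PAQR) family. T-cadherin, which lacks a transmembrane domain and is held on the surface by a lipid anchor, binds the large multimers of adiponectin and is abundant on vascular endothelium. A microRNA mimic is a synthetic duplex that loads a mature microRNA into the silencing complex, where bases 2 to 8, the seed, pair with target transcripts.

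Mature sequences of miR-126 and miR-143 are shown because their seeds set which letters were searched for in the 8 genes. The labels give no arm, so the 3p forms in RefSeq (GRCh38.p14) are printed, 5′ to 3′ with the seed in capitals. MIR126 lies on the plus strand of chromosome 9, where the mature form spans chr9:136670653-136670674, and the mature miR-143-3p spans chr5:149428978-149428998 on the plus strand.
hsa-miR-126-3p: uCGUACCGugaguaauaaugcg
hsa-miR-143-3p: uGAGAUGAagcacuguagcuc
The sequence CGGTACG, the complement of the miR-126-3p seed, occurred on the transcript strand in the 3′ untranslated region (the longest among a gene's protein-coding transcripts in GENCODE 29) of 37 of 12429 tested genes that have one, or 0.298%. For miR-143-3p the sequence searched was TCATCTC, found in 1794 of the 12429, or 14.4%. Among the 8 genes, 1 held a match, namely PAQR3 with 2 matches for miR-143-3p. They are shown here, in capitals within the surrounding bases on the transcript strand, since PAQR3 had the largest log2 fold change of the 8 genes with that mimic. That value was 0.72, a higher level with the mimic than with scrambled RNA, and is given below with its test.
PAQR3 match at chr4:78917112-78917134, minus strand, GRCh38: gcagcatatatTCATCTCaagta
PAQR3 match at chr4:78915533-78915555, minus strand, GRCh38: cagtagatatgTCATCTCattct
Both lie in the 8661-base 3′ untranslated region of PAQR3-209, a transcript that averaged 0.123 TPM over the 12 libraries. The 3 PAQR3 transcripts that averaged at least 1 TPM held 0 matches over their whole length. A match of letters is a description and does not show binding. ADIPOR2-201 held 1 miR-143-3p match over its whole length and 0 in its 2606-base 3′ untranslated region. miR-150 was not searched.

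The libraries had 12299 to 13564 genes at 1 TPM or more, and libraries of the same group correlated across genes at Pearson's r of 0.952 to 0.990. The table gives TPM without read counts, and sequencing depth is therefore unknown. Genes with long transcripts were low in replicate 4 of the miR-143 mimic and in replicate 4 of the miR-150 mimic, with Spearman correlations of a gene's deviation with its length of -0.40 and -0.55 across genes, against -0.01 to 0.29 in the other 10 libraries. The second of these, miR-150 mimic replicate 4, also had 22.7% of its TPM in ribosomal protein genes, against 12.7% to 16.9% elsewhere. All 12 endothelial markers examined, among them PECAM1, CDH5 and VWF, reached 1 TPM in at least 3 libraries. Their summed level was 1731 to 2425 TPM with the miR-126 mimic, 2271 to 3139 TPM with the miR-143 mimic, 1986 to 2868 TPM with the miR-150 mimic and 2262 to 3092 TPM with scrambled RNA. Of 7 fat cell markers 1 reached 1 TPM in 3 libraries, FABP4, which endothelium also makes, while ADIPOQ, LEP, PLIN1, PLIN4, CIDEC and LPL were below 1 TPM in every library. Of 9 leukocyte markers 2 reached it, CD14 and CD68, with CD3E, CD3D, MS4A1, LYZ and ITGAM among those below 1 TPM in every library. The sum of the 9 was 51.0 to 70.2 TPM with the miR-126 mimic and 42.3 to 62.6 TPM with the miR-143 mimic. It was 27.4 to 59.3 TPM with the miR-150 mimic and 29.7 to 48.7 TPM with scrambled RNA. The miR-126 mimic did not overlap scrambled RNA in the leukocyte sum, most of which was CD68, at 25.5 to 66.7 TPM over the 12 libraries. Of 9 fibroblast and pericyte markers 5 reached 1 TPM in at least 3 libraries, with DCN, LUM and PDGFRA below 1 TPM in every library. The sum of these 9 was 51.3 to 71.8 TPM with the miR-126 mimic and 39.7 to 58.2 TPM with the miR-143 mimic. It was 37.3 to 46.8 TPM with the miR-150 mimic and 49.98 to 131 TPM with scrambled RNA. The miR-150 mimic did not overlap scrambled RNA in this sum. One of these markers, COL1A2, had 3.32 to 28.6 TPM in the 9 mimic libraries, against 64.9, 8.65 and 80.1 TPM with scrambled RNA. Of 6 epithelial markers 3 reached 1 TPM in at least 3 libraries, EPCAM, KRT8 and KRT18, with KRT5, KRT14 and CDH1 below 1 TPM in every library. The sum of the 6 was 524 to 579 TPM with the miR-126 mimic and 730 to 952 TPM with the miR-143 mimic. It was 900.02 to 1024 TPM with the miR-150 mimic and 446 to 634 TPM with scrambled RNA. Both the miR-143 and the miR-150 mimic lay above scrambled RNA in the epithelial sum, without overlap. Most of that sum was 1 gene, KRT18, at 421 to 978 TPM over the 12 libraries. The part of these markers in the results below was not tested.

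With scrambled RNA, ADIPOR1 stood highest of the 8 genes, ahead of ADIPOR2 and CDH13. TPM is a level per transcript length, so levels of different genes can be set beside each other. The means were 137 TPM for ADIPOR1, 78.9 TPM for ADIPOR2, 68.5 TPM for CDH13, 19.8 TPM for PAQR4, 10.96 TPM for PAQR3, 7.07 TPM for PAQR8, 6.08 TPM for PAQR7 and 0.807 TPM for PAQR5. PAQR8 and PAQR7 overlapped in their ranges over the 3 libraries, and every other pair of neighbours in this order was separate. The order was the same with the miR-126 mimic. Under the miR-150 mimic ADIPOR2 came after CDH13 and PAQR4, at a mean of 16.6 TPM, and its range overlapped those of its neighbours in the order, PAQR4 and PAQR3. Of the PAQR family genes outside the 8, PAQR6 averaged 2.15 TPM and MMD 8.51 TPM with scrambled RNA, while PAQR9 was at or near 0 and MMD2 was listed at 0 in all 12 libraries.

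**Figure D1:**
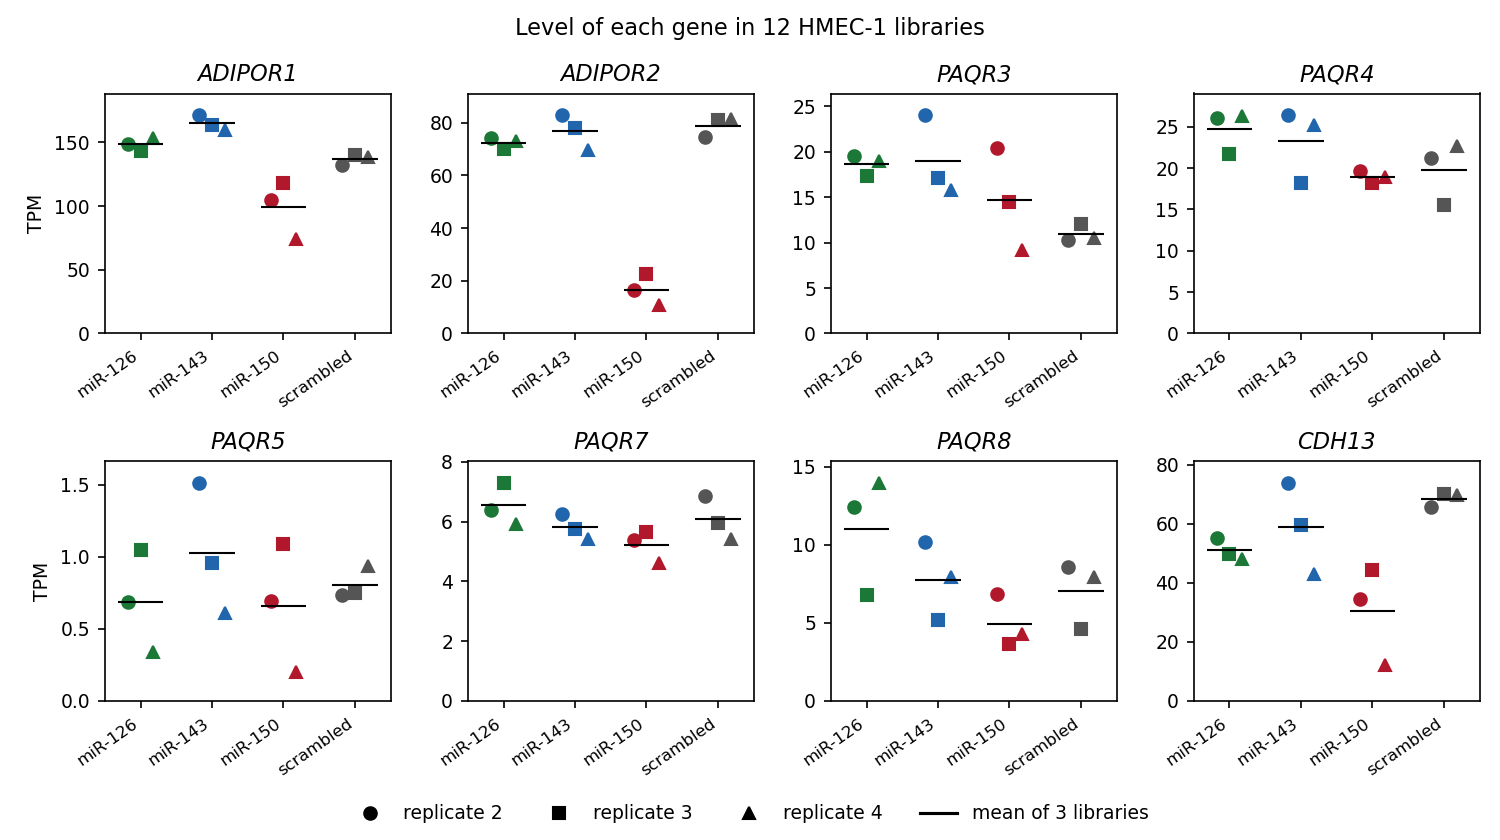
Level of each of the 8 genes in TPM (vertical axes, linear and from 0, each panel with its own scale) in the 12 libraries, by group on the horizontal axis; symbols give the replicate number and bars the mean of 3 libraries. ADIPOR2 sits at 10.9 to 22.5 TPM with the miR-150 mimic and at 69.6 TPM or more in the other 9 libraries, and PAQR3 is above its 3 scrambled RNA libraries in all 6 libraries of the miR-126 and miR-143 mimics.

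ADIPOR2, the receptor linked mainly to PPAR alpha, was low with the miR-150 mimic. The 3 libraries had 16.5, 22.5 and 10.9 TPM with the miR-150 mimic, against 74.5, 81.0 and 81.3 TPM with scrambled RNA. The groups did not overlap, and the highest miR-150 mimic library was below every library of the other 3 groups. Its log2 fold change was -2.23 (SE 0.197, n = 3 each, on the log2(TPM + 1) scale), the second lowest among the 13750 genes. The ratio of the means was 0.211. Leaving out 1 library at a time gave -2.47 to -1.98, where -1.98 was the value without miR-150 mimic replicate 4. This contrast chose the genes, so nothing is read from its size.

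Neither of the other mimics gave a passing difference in ADIPOR2. It had 74.3, 70.2 and 73.0 TPM with the miR-126 mimic, all just below the lowest scrambled RNA library, and 82.8, 78.1 and 69.6 TPM with the miR-143 mimic, which overlapped scrambled RNA. The log2 fold change against scrambled RNA was -0.12 (95% interval -0.55 to 0.31, limma adjusted p = 0.816) for the miR-126 mimic and -0.04 (95% interval -0.47 to 0.39, limma adjusted p = 0.948) for the miR-143 mimic. The threshold was 0.05, and a value that misses it does not show equal levels.

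The table lists ADIPOR2 under 2 Ensembl genes, ENSG00000006831 and ENSG00000285070, with 7 transcripts each. The values of the 7 pairs were identical in every library, and both sets were added here. The main transcript, ADIPOR2-201, is 4018 bases long and averaged 29.6 TPM in each copy. Each copy had 7.68, 10.2 and 5.30 TPM with the miR-150 mimic, against 36.3, 39.5 and 39.8 TPM with scrambled RNA, so the low level was that of the annotated protein-coding transcript. ADIPOR2 lies on the plus strand of chromosome 12, at 1688574 to 1788678 (GRCh38).

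ADIPOR1, the receptor linked mainly to AMP-activated kinase, differed less. It had 105, 118 and 74.5 TPM with the miR-150 mimic, against 132, 140.0 and 139 TPM with scrambled RNA. All 3 miR-150 mimic libraries were lower, replicate 4 the most. In log2 terms the difference was -0.49 (SE 0.143), and -0.29 without the 2 libraries that favoured short transcripts. Its main transcript, ADIPOR1-201, is 2177 bases long and made up 98.1% of the gene's TPM. The gene is on the minus strand of chromosome 1, at 202940823 to 202958572 (GRCh38).

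With the other 2 mimics ADIPOR1 was above scrambled RNA in each library, without passing the test. It had 149, 143 and 153 TPM with the miR-126 mimic and 171, 164 and 159.5 TPM with the miR-143 mimic. Neither group overlapped scrambled RNA. The log2 fold changes of 0.11 (SE 0.143, limma adjusted p = 0.743) and 0.26 (SE 0.143, limma adjusted p = 0.391) did not pass. With each library centred on its median gene the first of these became -0.02, so its direction depends on the scaling.

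The balance of the 2 receptors within a library does not depend on a library's scaling, but a bias by transcript length does not cancel in it. The main transcript is 4018 bases long for ADIPOR2 and 2177 for ADIPOR1, and the part of length in the ratio was not tested. ADIPOR2 was 0.157, 0.190 and 0.146 of ADIPOR1 with the miR-150 mimic. The ratio was 0.498, 0.490 and 0.477 with the miR-126 mimic and 0.483, 0.477 and 0.436 with the miR-143 mimic, against 0.562, 0.579 and 0.586 with scrambled RNA. All 9 mimic libraries were thus below the 3 scrambled RNA libraries, which all 3 mimics share. For the miR-126 mimic the mean ratio was 0.488 ± 0.0110, and for the miR-143 mimic 0.465 ± 0.0256, against 0.576 ± 0.0120 with scrambled RNA (SD, n = 3 each). Each gave an exact 2-sided permutation p of 0.1, the smallest that 3 against 3 libraries allow, and 0.1 after adjustment over the 6 ratio tests made. These ratios were chosen with the values known.

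**Figure D2:**
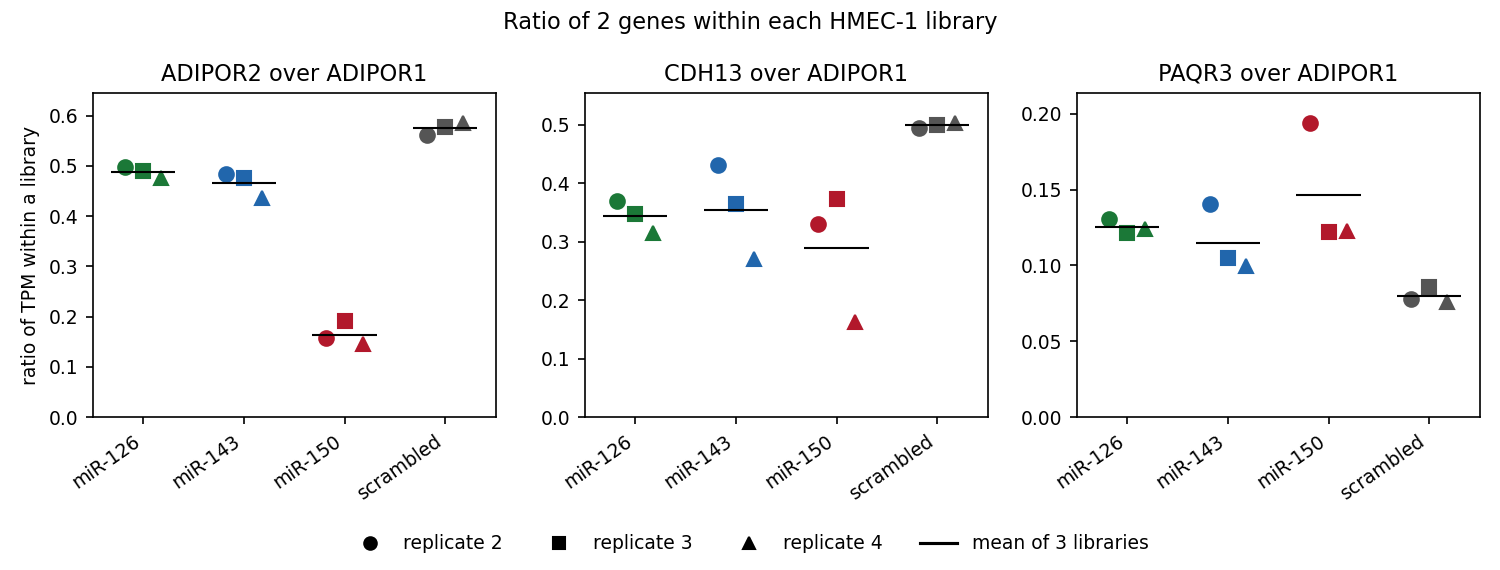
Ratio of ADIPOR2, CDH13 and PAQR3 to ADIPOR1 in the same library (vertical axes, from 0) for the 3 mimics and scrambled RNA (horizontal axes); symbols give the replicate number and bars the mean of 3 libraries. The ADIPOR2 ratio is 0.436 to 0.498 with the miR-126 and miR-143 mimics and 0.146 to 0.190 with the miR-150 mimic, against 0.562 to 0.586 with scrambled RNA.

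Summed over the 7 PAQR genes, the level was 283 ± 13.1 TPM with the miR-126 mimic, 299 ± 20.8 TPM with the miR-143 mimic and 160.4 ± 33.0 TPM with the miR-150 mimic, against 261 ± 6.50 TPM with scrambled RNA (SD, n = 3 each). ADIPOR2 made up 25.7% of that sum with the miR-126 mimic and with the miR-143 mimic, and 10.2% with the miR-150 mimic, against 30.3% with scrambled RNA.

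CDH13, on the plus strand of chromosome 16 at 82626803 to 83800640 (GRCh38), encodes T-cadherin. It had 34.6, 44.3 and 12.1 TPM with the miR-150 mimic, against 65.6, 70.0 and 69.9 TPM with scrambled RNA. All 3 mimic libraries were lower, but they differed among themselves, and the lowest was replicate 4, the library that stands apart. On the log2 scale it differed by -1.33 (SE 0.364), and -0.79 without that library and miR-143 mimic replicate 4. This contrast chose the genes and is not tested.

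With the miR-126 mimic CDH13 had 55.3, 49.7 and 48.1 TPM, each below every scrambled RNA library. The difference was a log2 fold change of -0.42 (SE 0.364, 95% interval -1.22 to 0.38), and limma's adjusted p of 0.596 did not pass. The error came from all 12 libraries, including the widely spread miR-143 and miR-150 mimic libraries. Without both libraries that favoured short transcripts the same log2 fold change had a limma adjusted p of 0.0478, and with the 2 groups alone 0.0245. Of all genes, 4.54% were lower in the first of these fits and 4.03% in the second, and 8.81% and 8.14% were higher. In limma the adjusted p was 0.390 with the replicate block, 0.252 with libraries centred on their median gene and 0.688 to 0.774 with any 1 library of the 2 groups left out, none of which passed. Under the miR-143 mimic CDH13 had 73.9, 59.7 and 43.0 TPM, which overlapped scrambled RNA, and the log2 fold change of -0.25 had a limma adjusted p of 0.787.

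Of the 5 CDH13 transcripts that averaged at least 1 TPM, 2 had all libraries below scrambled RNA with the miR-126 mimic and 3 with the miR-150 mimic. No such share was taken over all transcripts, so these counts are a description. Among all genes, 34.1% did not overlap scrambled RNA with the miR-126 mimic and 21.5% with the miR-150 mimic, in either direction. The longest of them, CDH13-209 of 8042 bases, had 8.54, 6.97 and 8.10 TPM with the miR-126 mimic and 4.83, 6.12 and 3.29 TPM with the miR-150 mimic, against 11.99, 10.4 and 10.2 TPM with scrambled RNA. Neither mimic overlapped scrambled RNA for this transcript. CDH13-201, of 2722 bases, averaged 16.7 ± 2.15 TPM with the miR-126 mimic and 9.33 ± 6.04 TPM with the miR-150 mimic, against 25.5 ± 2.08 TPM with scrambled RNA (SD, n = 3 each). For CDH13-201, too, neither mimic overlapped scrambled RNA. CDH13-202, of 2195 bases, overlapped scrambled RNA with the miR-126 mimic, at 16.6 ± 1.98 TPM with the mimic and 19.8 ± 5.39 TPM with scrambled RNA (SD, n = 3 each). With the miR-150 mimic the highest CDH13-202 library, at 13.659 TPM, was barely below the lowest scrambled RNA library, at 13.673 TPM. CDH13-213, a processed transcript of 877 bases with 10.6% of the gene's TPM, overlapped scrambled RNA with every mimic. It had 11.2, 8.17 and 1.64 TPM with the miR-126 mimic, 6.72, 1.55 and 0 TPM with the miR-143 mimic and 4.91, 7.15 and 1.56 TPM with the miR-150 mimic, against 5.97, 5.41 and 12.1 TPM with scrambled RNA. CDH13-203, of 831 bases with 3.31% of the gene's TPM, also overlapped, at 1.28 ± 1.75 TPM with the miR-126 mimic, 2.71 ± 1.90 TPM with the miR-143 mimic and 1.42 ± 0.702 TPM with the miR-150 mimic, against 1.499 ± 0.386 TPM with scrambled RNA (SD, n = 3 each). Estimates for transcripts that share exons are less sure than the gene's sum, and they were not tested.

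**Figure D3:**
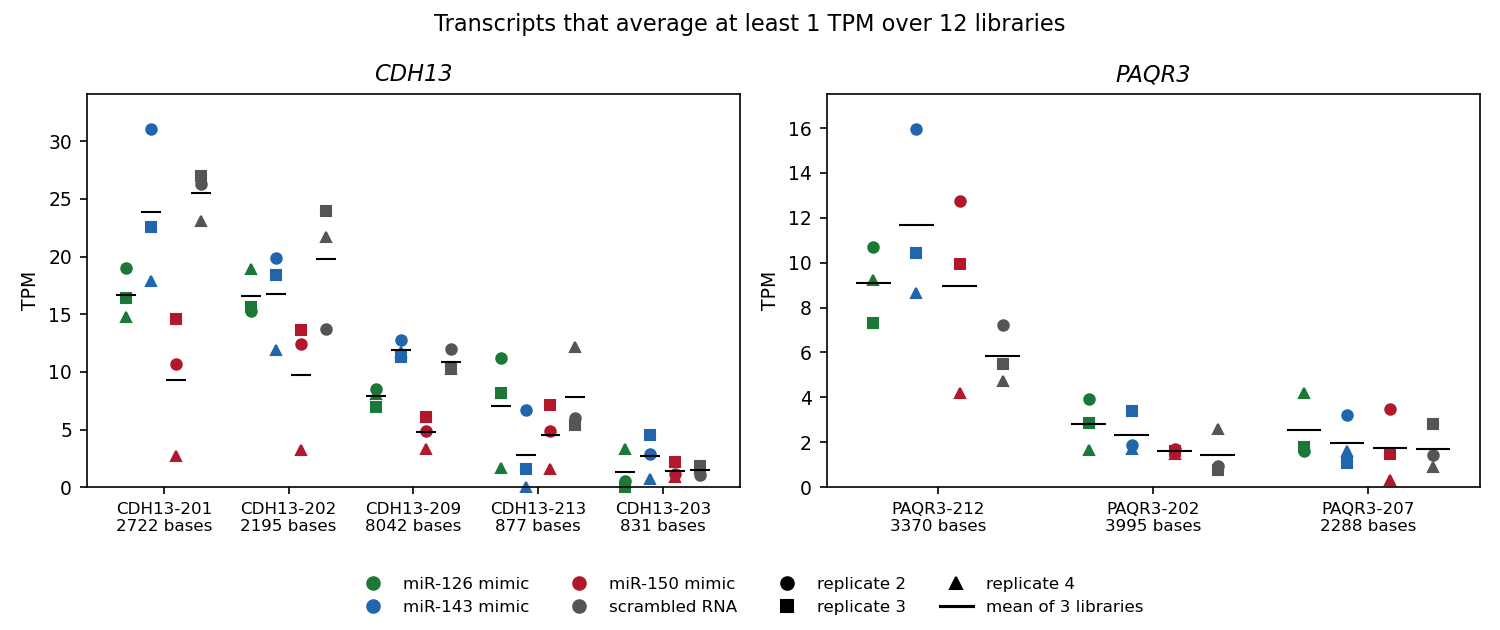
Level in TPM (vertical axes, from 0) of the CDH13 and PAQR3 transcripts that average at least 1 TPM over the 12 libraries (horizontal axes, with length in bases); colours give the group, symbols the replicate number and bars the mean of 3 libraries. CDH13-209 separates the miR-126 and miR-150 mimics from scrambled RNA, and PAQR3-212 carries most of the PAQR3 level.

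PAQR3 encodes a Golgi membrane protein that holds the sterol sensor complex of SCAP and SREBP at the Golgi. It is on the minus strand of chromosome 4, at 78887127 to 78939438 (GRCh38). It had 19.5, 17.3 and 19.0 TPM with the miR-126 mimic and 24.0, 17.2 and 15.9 TPM with the miR-143 mimic, against 10.3, 12.04 and 10.5 TPM with scrambled RNA. All 6 mimic libraries were above the highest scrambled RNA library.

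The log2 fold change of PAQR3 was 0.71 (SE 0.246, 95% interval 0.18 to 1.25) with the miR-126 mimic and 0.72 (SE 0.246, 95% interval 0.18 to 1.26) with the miR-143 mimic. Neither passed in limma, with adjusted p = 0.125 and 0.154 over the 13750 genes. The limma fit blocked on replicate number, which pairs the libraries of the miR-126 mimic and scrambled RNA, gave an adjusted p of 0.0396 for the miR-126 mimic, in a fit that called 11.8% of all genes higher and 5.11% lower. Leaving out both libraries that favoured short transcripts gave limma adjusted p = 0.0214 for the miR-126 mimic and 0.0330 for the miR-143 mimic, where 2.87% of all genes were higher and 2.27% lower with the miR-143 mimic. Both comparisons use the same 3 scrambled RNA libraries. Under the miR-150 mimic PAQR3 had 20.4, 14.5 and 9.15 TPM, which overlapped scrambled RNA, and a log2 fold change of 0.33.

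Of the PAQR3 level, 86.4% was in transcripts annotated for nonsense-mediated decay and 0.780% in the protein-coding one, PAQR3-209. PAQR3-212, of 3370 bases, held 56.2%, PAQR3-202 12.9% and PAQR3-207 12.6%. The first of these had 10.7, 7.31 and 9.21 TPM with the miR-126 mimic and 15.9, 10.4 and 8.65 TPM with the miR-143 mimic, against 7.22, 5.50 and 4.75 TPM with scrambled RNA. Its lowest miR-126 and miR-143 mimic libraries were still above the highest scrambled RNA library. Exons of PAQR3 share 5646 bases with BMP2K on the opposite strand, and whether the counting used strand is not given. PAQR3-212 and PAQR3-202 share 0 bases with BMP2K, while PAQR3-207 shares 1226 of its 2288 bases. The part of this overlap in the PAQR3 level was not tested. BMP2K itself averaged 27.1 ± 7.11 TPM with the miR-126 mimic and 32.1 ± 14.0 TPM with the miR-143 mimic, against 42.7 ± 11.2 TPM with scrambled RNA (SD, n = 3 each), the opposite direction to PAQR3, and passed in neither (limma adjusted p = 0.385 and 0.608).

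PAQR4, a Golgi family member linked to ceramide handling, is on chromosome 16, plus strand, at 2969245 to 2973489 (GRCh38). It had 26.1, 21.7 and 26.3 TPM with the miR-126 mimic, 26.4, 18.2 and 25.2 TPM with the miR-143 mimic and 19.6, 18.2 and 18.9 TPM with the miR-150 mimic, against 21.2, 15.5 and 22.7 TPM with scrambled RNA. The groups overlapped in each comparison. The log2 fold change was 0.32 (SE 0.181, limma adjusted p = 0.376) with the miR-126 mimic and 0.22 (SE 0.181, limma adjusted p = 0.603) with the miR-143 mimic. Of its level, 59.5% was in PAQR4-203, 26.8% in PAQR4-202 and 12.2% in PAQR4-204. PAQR4 exons share 1233 bases with PKMYT1 on the opposite strand, whose log2 fold change with the miR-126 mimic was 0.25 (limma adjusted p = 0.474).

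PAQR7, PAQR8 and PAQR5 encode the membrane progestin receptors alpha, beta and gamma. PAQR8, on the plus strand of chromosome 6 at 52361421 to 52407777 (GRCh38), had 12.4, 6.77 and 14.0 TPM with the miR-126 mimic and 10.2, 5.20 and 7.93 TPM with the miR-143 mimic, against 8.60, 4.62 and 7.98 TPM with scrambled RNA. Under the miR-150 mimic it had 6.87, 3.64 and 4.31 TPM. Replicate 3 was the lowest in all 4 groups, which therefore overlapped. Of its level 73.0% was in PAQR8-201 and 27.0% in PAQR8-202, while PAQR7-201 was the 1 transcript listed for PAQR7.

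Within each replicate number PAQR8 was higher with the miR-126 mimic than with scrambled RNA. The log2 fold change was 0.56 (SE 0.329, 95% interval -0.16 to 1.28) with a limma adjusted p of 0.391, or 0.0406 in the fit blocked on replicate number. That blocked fit called 11.8% of all genes higher and 5.11% lower. The miR-143 mimic gave 0.12 (limma adjusted p = 0.896) and the miR-150 mimic -0.44.

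PAQR7, on the minus strand of chromosome 1 at 25861210 to 25871253 (GRCh38), had 6.40, 7.30 and 5.93 TPM with the miR-126 mimic, 6.26, 5.76 and 5.41 TPM with the miR-143 mimic and 5.39, 5.66 and 4.61 TPM with the miR-150 mimic, against 6.85, 5.97 and 5.44 TPM with scrambled RNA. Its log2 fold changes were 0.09 with the miR-126 mimic and -0.05 with the miR-143 mimic (limma adjusted p = 0.834 and 0.903). PAQR5, on the plus strand of chromosome 15 at 69298947 to 69407780 (GRCh38), ranged from 0.204 to 1.51 TPM over all libraries. At that level its log2 fold changes of -0.12 and 0.14 (limma adjusted p = 0.880 and 0.834) understate any change.

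Over the 8 genes, 0 passed with the miR-126 mimic and 0 with the miR-143 mimic in limma, and 1 gene in each, PAQR3, had an unadjusted p below 0.05. The background in the same tests was 3.37% of the 13750 genes higher and 1.73% lower with the miR-126 mimic, and 1.84% higher and 1.48% lower with the miR-143 mimic. The low ADIPOR2 level with the miR-150 mimic chose the 8 genes, so nothing is read from the calls among them in that contrast, where 1.08% of all genes were called higher and 2.23% lower. In 4 of the 8 genes the libraries of the miR-126 mimic did not overlap those of scrambled RNA, against 34.1% of all genes. For the miR-143 mimic this held for 2 of 8, against 25.3%, and for the miR-150 mimic for 3 of 8, against 21.5%. The median log2 fold change of the 8 genes was 0.10 with the miR-126 mimic, where that of all genes was 0.10, and 0.13 with the miR-143 mimic, where that of all genes was -0.04. The counts of the miR-126 and miR-143 mimics are near the background. In the fit blocked on replicate number PAQR3 and PAQR8 passed with the miR-126 mimic, where 11.8% of all genes were higher and 5.11% lower.

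**Figure D4:**
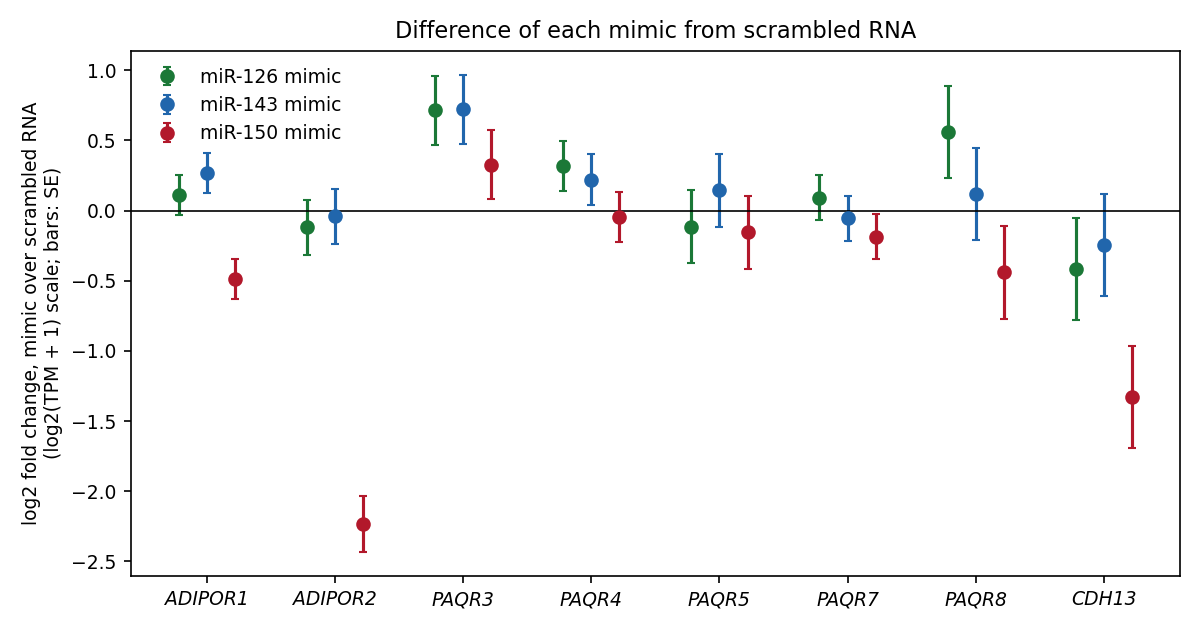
Log2 fold change of each mimic over scrambled RNA (vertical axis, log2(TPM + 1) scale) for the 8 genes (horizontal axis), with the 3 mimics in different colours and bars of 1 SE. The miR-150 mimic lies at -2.23 for ADIPOR2 and -1.33 for CDH13, and the miR-126 and miR-143 mimics lie at 0.71 and 0.72 for PAQR3.

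The miR-126 and miR-143 mimics differed from each other in 0 of the 8 genes in limma, and 0 had an unadjusted p below 0.05. Of all genes 1.46% were higher and 1.05% lower with the miR-126 mimic. The lowest adjusted p was that of PAQR8, with a log2 fold change of 0.44 (SE 0.329, 95% interval -0.28 to 1.17, limma adjusted p = 0.539). ADIPOR1 was the 1 gene of 8 whose libraries did not overlap, against 25.4% of all genes, and its log2 fold change of -0.15 had a limma adjusted p of 0.635. PAQR3 differed by -0.01 (95% interval -0.55 to 0.53).

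Genes of the same pathway were taken from lists written from textbook knowledge. The lists are short and were not tested as sets, so each count describes the genes named. Of 8 tested genes for adiponectin-like ligands and their assembly, 2 were higher and 0 lower with the miR-126 mimic. Of all genes, 3.37% were higher and 1.73% lower with that mimic. C1QTNF1, a secreted relative of adiponectin, averaged 9.96 ± 2.48 TPM with the miR-126 mimic, against 3.31 ± 0.545 TPM with scrambled RNA (SD, n = 3 each), and the log2 fold change was 1.33 (limma adjusted p = 0.00406). GSTK1, also called DsbA-L, which assists assembly of adiponectin multimers, averaged 119.8 ± 8.84 TPM with the miR-126 mimic, against 81.5 ± 7.84 TPM with scrambled RNA (limma adjusted p = 0.0200). ADIPOQ, the adiponectin gene, was not among the genes tested. None of these was called with the miR-143 mimic, or 0 of 8.

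Of 29 tested adaptors and signalling genes downstream of the receptors, 0 were higher and 2 lower with the miR-126 mimic, beside 3.37% and 1.73% of all genes. With the replicate block 1 was higher and 3 lower, where 11.8% of all genes were higher and 5.11% lower. NOS3, the endothelial nitric oxide synthase, averaged 18.9 ± 1.74 TPM with the miR-126 mimic, against 29.6 ± 1.01 TPM with scrambled RNA (SD, n = 3 each), and the log2 fold change was -0.62 (limma adjusted p = 0.0152). STRADB, a pseudokinase of the LKB1 complex, averaged 30.0 ± 1.88 TPM with the miR-126 mimic, against 51.8 ± 6.41 TPM with scrambled RNA (log2 fold change -0.76, limma adjusted p = 0.0203). Of the 29, 0 passed with the miR-143 mimic. APPL1, the adaptor that binds both receptors, averaged 33.8 ± 3.60 TPM with the miR-126 mimic and 31.4 ± 11.3 TPM with the miR-143 mimic, against 41.2 ± 3.95 TPM with scrambled RNA (limma adjusted p = 0.718 and 0.556). With the miR-150 mimic 2 of the 29 were lower, STRADB and PPARA, where 2.23% of all genes were. The low ADIPOR2 level of this contrast chose the set, so these calls are a description and no test. PPARA, the nuclear receptor linked to ADIPOR2, averaged 2.18 ± 0.617 TPM with the miR-150 mimic, against 4.90 ± 1.05 TPM with scrambled RNA.

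Of 17 tested genes of fatty acid oxidation, 2 were higher and 0 lower with the miR-126 mimic, beside 3.37% and 1.73% of all genes. With the replicate block 3 were higher and 1 lower, beside the same 11.8% and 5.11% of all genes. PDK4, which restrains glucose oxidation, averaged 31.6 ± 10.02 TPM with the miR-126 mimic, against 10.04 ± 0.934 TPM with scrambled RNA (SD, n = 3 each), and the log2 fold change was 1.51 (limma adjusted p = 0.00782). CPT2, of the carnitine shuttle, rose by 0.60 on the log2 scale (limma adjusted p = 0.0469). UCP2, a mitochondrial carrier, was the 1 gene lower with the miR-143 mimic, where 0 were higher, beside 1.48% and 1.84% of all genes. UCP2 averaged 46.8 ± 7.41 TPM with the miR-143 mimic, against 98.7 ± 20.9 TPM with scrambled RNA (log2 fold change -1.05, limma adjusted p = 0.0126). With the miR-150 mimic 0 passed.

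Of 9 tested genes of ceramide hydrolysis and the sphingosine 1-phosphate that it feeds, 2 were higher and 1 lower with the miR-126 mimic. Of all genes, 3.37% were higher and 1.73% lower with that mimic. S1PR1, the main endothelial receptor for sphingosine 1-phosphate, averaged 134 ± 14.1 TPM with the miR-126 mimic and 152 ± 17.7 TPM with the miR-143 mimic, against 50.3 ± 5.20 TPM with scrambled RNA (SD, n = 3 each), log2 fold changes of 1.40 and 1.57 (limma adjusted p = 0.00135 and 0.000788). ASAH1, the lysosomal acid ceramidase, was also higher with both, by 0.44 and 0.49 on the log2 scale (limma adjusted p = 0.0324 and 0.0250). SGPP1, a phosphatase of sphingosine 1-phosphate, averaged 4.40 ± 0.744 TPM with the miR-126 mimic, against 17.98 ± 3.20 TPM with scrambled RNA (log2 fold change -1.81, limma adjusted p = 0.0176). With the miR-143 mimic 2 of 9 were higher and 0 lower, where 1.84% and 1.48% of all genes were. With the miR-150 mimic, as a description and no test, 1 was higher, S1PR1, and 1 lower, SGPP1. Of all genes, 1.08% were higher and 2.23% lower with the miR-150 mimic.

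Of 5 tested genes of other progestin-binding membrane proteins, 1 was higher with the miR-126 mimic, CYB5D2, at 13.4 ± 2.91 TPM against 7.09 ± 0.352 TPM with scrambled RNA (SD, n = 3 each; limma adjusted p = 0.0351), and 0 passed with the miR-143 or the miR-150 mimic. Of 13 genes that act with PAQR3, 1 was higher with the miR-126 mimic and 1 with the miR-143 mimic. In both cases it was DDB1, an adaptor of a ubiquitin ligase, by 0.46 and 0.48 on the log2 scale (limma adjusted p = 0.0279 and 0.0297). The counts of both lists stand beside a background, for the miR-126 mimic, of 3.37% called higher and 1.73% called lower. For the miR-143 mimic that background was 1.84% and 1.48%. In the blocked fit 2 of the 13 were higher with the miR-126 mimic, where 11.8% of all genes were. SCAP differed by -0.05 with the miR-126 mimic and -0.13 with the miR-143 mimic on the log2 scale (limma adjusted p = 0.900 and 0.684).

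The cadherin list held cadherins, catenins and T-cadherin partners. Of its 10 tested genes, 0 were higher and 2 lower with the miR-126 mimic, CTNNB1 and ILK. Of all genes, 3.37% were higher and 1.73% lower with that mimic. CTNNB1, which encodes beta-catenin, averaged 185 ± 23.3 TPM with the miR-126 mimic, against 348 ± 69.4 TPM with scrambled RNA (SD, n = 3 each), and the log2 fold change was -0.90 (limma adjusted p = 0.0312). ILK, integrin-linked kinase, fell by 1.32 on the log2 scale (limma adjusted p = 4.5e-05), and its exons overlap those of TAF10. Of the 10, 0 passed with the miR-143 mimic. With the miR-150 mimic, as a description and no test, 1 was lower, CDH2, where 2.23% of all genes were. CDH2 encodes N-cadherin. It averaged 13.9 ± 9.09 TPM with the miR-150 mimic and 13.7 ± 3.42 TPM with the miR-126 mimic, against 39.0 ± 8.62 TPM with scrambled RNA. With the miR-126 mimic the limma adjusted p of CDH2 was 0.0536. It was 0.00281 in the limma fit with the replicate block, where 5.11% of all genes were lower. CDH5, which encodes VE-cadherin, averaged 347 ± 73.9 TPM with the miR-126 mimic, against 396 ± 78.0 TPM with scrambled RNA (limma adjusted p = 0.743).

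The list medians can be set beside those of all genes. With the miR-126 mimic the median log2 fold change was 0.42 for the ligands, -0.10 for the signalling genes, 0.09 for fatty acid oxidation, 0.32 for ceramide hydrolysis, 0.0080 for progestin binding, 0.0089 for PAQR3 partners and -0.17 for cadherins, where that of all genes was 0.10. With the miR-143 mimic, in the same order, it was 0.24, -0.12, 0.09, -0.27, 0.12, 0.0031 and -0.30, where that of all genes was -0.04. Leaving out both libraries that favoured short transcripts gave, with the miR-126 mimic, 2 higher and 1 lower ligand genes, 2 higher and 3 lower signalling genes, 2 higher and 1 lower oxidation genes, 3 higher and 1 lower ceramide genes and 0 higher and 3 lower cadherin genes, where 8.81% of all genes were higher and 4.54% lower. The same fit gave 1 higher progestin-binding gene and 1 higher and 1 lower PAQR3 partner with the miR-126 mimic. With the miR-143 mimic it gave 2 higher signalling genes, 1 lower oxidation gene, 2 higher ceramide genes and 1 higher PAQR3 partner. There 2.87% of all genes were higher and 2.27% lower. With the miR-150 mimic, as a description and no test, it left 1 lower signalling gene, 1 higher and 1 lower ceramide gene and 2 higher PAQR3 partners. It left 0 cadherin genes, where 2.05% of all genes were higher and 2.22% lower.

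Genes with a pattern like that of ADIPOR2 were ranked by the root mean square difference of log2(TPM + 1) over the 12 libraries, each gene centred on its own mean. These libraries include the miR-150 mimic, whose low ADIPOR2 level chose the genes, so the ranks are a description and no test. The 5 nearest were SMARCD2 at 0.207, KCTD20 at 0.221, HNRNPH2 at 0.256, MPZL1 at 0.286 and PDXDC1 at 0.351, where ADIPOR2 itself ranged over 2.82. SMARCD2, a subunit of the SWI/SNF chromatin remodelling complex, averaged 66.5 TPM with the miR-126 mimic, 55.0 TPM with the miR-143 mimic and 17.3 TPM with the miR-150 mimic, against 68.8 TPM with scrambled RNA. For ADIPOR1 the 5 nearest were OSBPL9 and SNX9, both at 0.113, UBXN2A at 0.116, and RNF145 and ZNF700, both at 0.119. For CDH13 they were KIRREL1 at 0.171, MBNL1 at 0.176, STYX at 0.188, SPOPL at 0.195 and KLHL15 at 0.196. The lowest CDH13 library, at 12.1 TPM, was miR-150 mimic replicate 4, which favoured short transcripts.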

How the data were processed

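RNA of 12 HMEC-1 libraries was measured by sequencing. The deposited TPM are the authors' estimates from kallisto, a tool that matches reads to transcript sequences, per the submitters' processing notes, which also name FastQC, sleuth and GRCh38 (hg38). Their versions, the transcript annotation, any filter and the use of strand were not given in the sources used here. Because TPM are scaled by length and total, a bias by length remains and read numbers cannot be had.

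TPM of the 187626 transcripts were summed per symbol, leaving out 171 without a gene. The 13750 symbols reaching 1 TPM in 3 or more libraries entered a test on log2(TPM + 1) with limma 3.58.1 (R 4.3.3, trended variance) in 1 fit over 12 libraries, with Benjamini-Hochberg adjustment over all of them and a threshold of 0.05. A fold change on this scale understates that of low genes. The script was tested on simulated data. Positions, transcript names and untranslated regions are from GENCODE 29, which holds 90.6% of the transcripts, and microRNAs from RefSeq.

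All 8 members were named, with their transcripts of at least 1 TPM on average. Up to 4 genes of a pathway list were named where they passed, by size of change, as were the 5 genes most like ADIPOR2, ADIPOR1 and CDH13, with a few others chosen after their values were seen (APPL1, SCAP, CDH5, COL1A2 and CDH2 with the miR-126 mimic). The members and lists were chosen with earlier results of these data known. Deviations from group means of same-numbered libraries correlated at 0.29, 0.63 and 0.40 between the miR-126 mimic and scrambled RNA, and at 0.32, 0.66 and 0.37 between the miR-126 and miR-143 mimics, so the shared numbers pair these libraries. Alternatives were another pseudocount (0.1), other filters (none, or 5 TPM), sums per Ensembl gene, median-centred libraries, 2 groups alone, a replicate block, 1 library left out, and both libraries that favour short transcripts left out.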

Additional observations from a re-analysis of the deposited data

How the results depend on the processing

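Of 444 alternative log2 fold changes of single genes, 408 kept their direction and side of the threshold, 15 came to pass it and 21 changed sign. Genes passing with the miR-126 mimic numbered 1673 with the 2 groups alone, 2331 with the replicate block, 1835 leaving out both short-transcript libraries (replicate 4 of the miR-143 and miR-150 mimics) and 214 to 472 without 1 library. With the miR-143 mimic they numbered 266, 1775, 707 and 139 to 339 in the same order, for the miR-126 against the miR-143 mimic 187, 1515, 578 and 77 to 183, and with the miR-150 mimic 57 with the 2 groups alone, 1694 with the block and 125 to 553 without 1 library. Centring libraries on their median gene shifted all log2 fold changes by -0.14 with the miR-126 mimic, 0.05 with the miR-143 mimic, 0.13 with the miR-150 mimic and -0.19 between the first 2. It took the share of higher calls to 39.3%, against 66.1%, for the miR-126 mimic and to 35.6%, against 58.1%, for the miR-126 against the miR-143 mimic.

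Of the 8 genes, 2 passed with the miR-126 mimic with the 2 groups alone (PAQR3 higher, CDH13 lower), 2 with the block (PAQR3 and PAQR8 higher), 2 without the 2 libraries (PAQR3 and CDH13) and 0 without any 1 library. PAQR3 was the 1 gene to pass with the miR-143 mimic when centred, with the block (adjusted p = 0.0457) or without the 2 libraries, and 0 passed without any 1 library. With the miR-150 mimic, the contrast that chose the genes, the counts are a description and no test: 2 when centred, 3 with the block, 2 without the 2 libraries and 1 to 3 without 1 library. The block changed no other call of the 8 genes. For the miR-143 and miR-150 mimics the shared numbers pair fewer than all libraries of scrambled RNA (correlations 0.04, 0.65 and 0.17, and 0.07, 0.60 and 0.07), so the block is given here alone.

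When centred, ADIPOR1 and PAQR7 turned to -0.023 and -0.046 with the miR-126 mimic, ADIPOR2 to 0.010 with the miR-143 mimic, PAQR4 to 0.082 with the miR-150 mimic, and PAQR4 and PAQR7 to -0.093 and -0.043 between the miR-126 and miR-143 mimics. Without the 2 libraries ADIPOR2 turned to 0.028 with the miR-143 mimic and PAQR5 to 0.059 with the miR-150 mimic. Without 1 library PAQR5 ranged from -0.27 to 0.041 with the miR-126 mimic. With the miR-143 mimic ADIPOR2 ranged from -0.096 to 0.028, PAQR5 from -0.024 to 0.30, PAQR7 from -0.12 to 0.022 and PAQR8 from -0.12 to 0.35. With the miR-150 mimic PAQR4 ranged from -0.21 to 0.057 and PAQR5 from -0.34 to 0.059. Between the miR-126 and miR-143 mimics PAQR3 ranged from -0.12 to 0.16, PAQR4 from -0.066 to 0.19 and CDH13 from -0.38 to 0.0069. The cause was not tested. Depth is unknown, and 3 libraries a group and the low level of PAQR5 limit precision.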
